A study of Mus musculus with 2 samples.

Results

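The 9 genes described here are those by which a regulatory T (Treg) cell is usually recognised, with the cytokine and receptor that sustain it and some of its products: Foxp3, Ikzf2, Ikzf4, Il2ra, Il2rb, Il2, Areg, Penk and Il10. They were chosen by symbol from the 27998 genes of each count matrix, and all 9 were listed in both. Their levels and co-detection were compared in T, natural killer (NK) and myeloid cells of B16 tumours, a transplanted melanoma of C57BL/6 mice, and between 2 genotypes. CD45+ leukocytes were sorted 14 days after inoculation of female mice 5 weeks of age, and each genotype gave 1 droplet library of 3' ends counted with unique molecular identifiers (UMIs).

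The Nrp1L/LFoxp3Cre-YFP mice (Nrp1L/L library) carry a floxed Nrp1 and a Cre recombinase with a yellow fluorescent protein expressed from the Foxp3 locus, so that recombination is directed to Foxp3-expressing cells. The Foxp3Cre-YFP mice (control library) carry the same Cre allele, with no floxed gene named in the labels. All cells therefore came from animals with the modified Foxp3 locus. The number of mice behind each library is not given in the sources used here. With 1 library a genotype no test was possible, genotype and library cannot be told apart, and all intervals below are 95% counting intervals, which treat UMIs as independent and cover counting error only.

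Foxp3 encodes the transcription factor that specifies Treg cells. These cells carry the high-affinity receptor for interleukin-2 (IL-2), in which the alpha chain (Il2ra, CD25) raises the affinity of the signalling beta chain (Il2rb, CD122) and common gamma chain. IL-2 from other activated T cells signals through STAT5 and sustains Foxp3 and Il2ra in Treg cells. In tumours and injured tissue Treg cells can also make IL-10 and amphiregulin (Areg), an epidermal growth factor receptor ligand linked to tissue repair. None of these genes besides Foxp3 is restricted to Treg cells: activated CD8 T cells, NK cells and myeloid cells can express several of them.

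After removal of suspected doublets the Nrp1L/L library held 1275 cells and 8774789 UMIs and the control library 1302 cells and 12912194 UMIs, with medians of 5332 and 8056.5 UMIs a cell. T cells were cells with at least 2 UMIs of Cd3d, Cd3e and Cd3g together (766 in the Nrp1L/L library, 452 in the control library). They were split into CD8 cells, with at least 2 UMIs of Cd8a and Cd8b1 (394 and 241 cells), and CD3 cells with no Cd8 UMI (323 and 183 cells). NK cells had at least 2 UMIs of Ncr1 and Klrb1c (243 and 120 cells), and myeloid cells at least 10 UMIs of Lyz2 (214 and 577 cells). The gates overlapped: 43 Nrp1L/L and 31 control CD3 cells without Cd8 UMIs were also in the NK gate. Cd4 was found in 87 of the 323 Nrp1L/L and 51 of the 183 control cells of that gate, and the 7 NK markers summed to 925 and 1198 CPM there (the UMIs of a gene in each 1000000 UMIs of the gate); the 8 monocyte and macrophage markers summed to 3759 and 2273 CPM. The gate is therefore described by its rule and not as CD4 T cells.

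The targeted gene, Nrp1, encodes neuropilin-1, a co-receptor of many thymus-derived Treg cells. In CD3 cells without Cd8 UMIs it stood at 43.8 CPM in the Nrp1L/L library and 46.5 CPM in the control library, a log2 ratio of -0.09 (-0.58 to 0.41). Which part of Nrp1 is floxed is not given in the sources used here, so these counts of 3' ends may not check the deletion. In CD8 cells Nrp1 stood at 26.8 and 55.2 CPM (log2 ratio -1.04, -1.42 to -0.67).

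Promoter sequence was matched in RefSeq (GRCm38.p6) for 4 of the 9 genes: Foxp3, Il2ra, Areg and Il2. The 250 bases before the annotated start are given for the 3 genes among them with enough UMIs to describe, because these differed most in how their UMIs were spread: Areg in few cells with many UMIs, Il2ra mainly in T cells, and Il2 over all gates. The stretches lie at chr5:91139349-91139598 (plus strand) for Areg, at chr2:11642542-11642791 (plus strand) for Il2ra and at chr3:37125955-37126204 (minus strand) for Il2. Capitals mark matches to the cyclic AMP response element TGACGTCA, the NFAT core GGAAA and the STAT motif TTCNNNGAA and AP-1 motif TGANTCA on either strand, and to TATAAA on the printed strand.
Areg: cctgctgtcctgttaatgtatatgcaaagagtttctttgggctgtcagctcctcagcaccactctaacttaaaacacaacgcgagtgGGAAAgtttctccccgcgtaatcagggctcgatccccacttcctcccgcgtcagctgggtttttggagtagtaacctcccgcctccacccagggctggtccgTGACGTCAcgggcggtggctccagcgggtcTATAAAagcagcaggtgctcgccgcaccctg
Il2ra: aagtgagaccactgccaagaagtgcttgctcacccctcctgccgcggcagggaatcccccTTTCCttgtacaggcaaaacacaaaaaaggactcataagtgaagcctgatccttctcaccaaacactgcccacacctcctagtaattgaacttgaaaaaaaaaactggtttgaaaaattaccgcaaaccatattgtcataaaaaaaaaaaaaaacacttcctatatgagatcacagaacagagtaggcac
Il2: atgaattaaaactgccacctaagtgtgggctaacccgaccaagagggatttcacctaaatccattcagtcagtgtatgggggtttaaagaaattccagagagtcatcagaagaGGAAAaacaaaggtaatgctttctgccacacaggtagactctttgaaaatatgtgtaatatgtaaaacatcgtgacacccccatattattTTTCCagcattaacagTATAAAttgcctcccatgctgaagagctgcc
The Areg stretch holds TGACGTCA, with its left end at -61 from the start, which is found in 1.55% of 32851 mouse promoter stretches of the same length, and TATAAA at -31 (7.59%). The Il2 stretch holds TATAAA at -31. The GGAAA core, present in all 3, is found in 55.6% of promoter stretches. None of the 3 held TTCNNNGAA (7.02% of stretches) or TGANTCA (6.75%). A match is a description of letters, not of factor binding.

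Foxp3 (ENSMUSG00000039521, chromosome X, 7573644 to 7595245, plus strand, GRCm38) was barely counted. It had 5 UMIs in 3 cells of the Nrp1L/L library and 3 UMIs in 3 cells of the control library, all in CD3 cells and, but for 1 control cell with a single Cd8 UMI, in CD3 cells without Cd8 UMIs. It had 0 UMIs in 394 and 241 CD8 cells, which allows a share of cells with a UMI of up to 0.761% and 1.24%. It also had 0 UMIs in NK cells and in 214 and 577 myeloid cells, which allows up to 1.40% and 0.520% of myeloid cells. The exons at its 3' end overlap exons of Ccdc22 and Gm36995 on the opposite strand. A genotype difference in Foxp3 was not detectable at this depth.

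Ikzf2 (ENSMUSG00000025997, chromosome 1, 69531214 to 69687245, minus strand) encodes Helios, an Ikaros family transcription factor of many thymus-derived Treg cells. Among the CD8, NK, myeloid and remaining CD3 cells it was highest in CD3 cells without Cd8 UMIs, with 280.3 CPM (255 to 307) in the Nrp1L/L library and 232 CPM (209 to 258) in the control library. NK cells had 59.0 and 63.7 CPM, CD8 cells 39.3 and 88.4 CPM, and myeloid cells 2.59 and 5.73 CPM. The order of CD8 and NK cells therefore differed between the libraries: CD8 cells were below NK cells in the Nrp1L/L library and above them in the control library, and in each library their intervals overlapped at the ends (33.0 to 46.5 in CD8 and 46.3 to 74.2 in NK cells of the Nrp1L/L library, 78.2 to 99.5 and 49.2 to 81.2 in the control library). The CD3 cells with exactly 1 Cd8 UMI had 337 and 435 CPM.

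Ikzf2 was lower in the CD8 cells of the Nrp1L/L library, and the difference was spread over many cells. It had 135 UMIs in the Nrp1L/L and 274 UMIs in the control CD8 cells, a log2 ratio of -1.17 (-1.48 to -0.87). It was found in 41 of 394 Nrp1L/L cells (10.4%, 7.57 to 13.9) and 84 of 241 control cells (34.9%, 28.9 to 41.2). After each cell was thinned to 2500 UMIs, to remove the difference in depth, these shares were 5.84% and 16.2%. The highest cell held 11.1% and 5.47% of the Ikzf2 UMIs.

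The direction was the same in CD8 cells with and without division genes. Among cycling CD8 cells (at least 2 UMIs of Mki67, Top2a, Birc5 and Cdk1; 97 and 108 cells) Ikzf2 stood at 31.0 CPM in the Nrp1L/L and 84.2 CPM in the control library. Among the other CD8 cells (297 and 133) it stood at 45.7 and 96.8 CPM. With levels from thinned cells the ratio was -0.92, and with the gates also set on thinned cells it was -0.22 (-0.89 to 0.46). With every cell given equal weight it was -0.70. In CD3 cells without Cd8 UMIs the Ikzf2 ratio was small and of the opposite sign (0.27, 0.07 to 0.47), and 0.065 once cells meeting more than 1 gate were left out.

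Ikzf4 (ENSMUSG00000002578, chromosome 10, 128630843 to 128645991, minus strand) encodes Eos, another Ikaros factor, which acts with Foxp3 in repressing genes of Treg cells. It was sparse, with 32 UMIs in 18 cells of the Nrp1L/L library and 70 UMIs in 33 cells of the control library. CD3 cells without Cd8 UMIs had 12 and 25 UMIs, or 7.30 and 16.4 CPM (log2 ratio -1.17, -2.29 to -0.12). With thinned cells 3 and 12 UMIs were left, fewer than the minimum set for a measured gene, and the ratio was -2.82 (-5.28 to -0.93). That interval overlapped the one before thinning, so no larger difference is read. CD8 cells had 5.24 and 6.45 CPM, with overlapping intervals, and NK and myeloid cells together held 2 UMIs in the Nrp1L/L and 1 UMI in the control library. In all CD3 cells Ikzf4 was the only 1 of 8 measured members at least 1.5-fold lower in the Nrp1L/L library (5.77 and 11.9 CPM), where 12.7% of all genes were, and Areg the only 1 at least 1.5-fold higher, where 14.1% were; 26.8% of all genes were past that fold in either direction.

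Il2ra (ENSMUSG00000026770, chromosome 2, 11642807 to 11693193, plus strand) had levels in T cells that differed between genotypes by less than their intervals. In CD3 cells without Cd8 UMIs it stood at 46.2 CPM (36.4 to 57.8) in the Nrp1L/L and 43.9 CPM (34.0 to 55.7) in the control library, a log2 ratio of 0.07 (-0.42 to 0.57). The gene was found in 20 of 323 Nrp1L/L cells (6.19%) and 22 of 183 control cells (12.02%), and in 4.64% (2.62 to 7.54) and 5.46% (2.65 to 9.82) after thinning, with overlapping intervals. With each cell given equal weight the log2 ratio was -0.61, and with the CD3 gate at 1 UMI it was 0.59.

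In CD8 cells Il2ra stood at 19.5 and 22.3 CPM (log2 ratio -0.19, -0.70 to 0.32). In NK cells it had 9 and 20 UMIs (7.27 and 19.6 CPM), of which 1 cell held 6 in the Nrp1L/L and 11 in the control library (log2 ratio -1.43, and -3.76 without cycling cells), and in myeloid cells 2 and 13 UMIs. The order was the same in both libraries: CD3 cells without Cd8 UMIs over CD8 cells (log2 ratio 1.24 in the Nrp1L/L and 0.98 in the control library), then NK cells, then myeloid cells. CD8 and NK cells of the control library did not differ beyond their intervals. With gates and levels from thinned cells, CD3 cells without Cd8 UMIs were no longer above NK cells in the control library (log2 ratio -0.11, -1.51 to 1.44). The step over CD8 cells was also lost in some settings, at 0.58 (-0.39 to 1.56) in the Nrp1L/L library with thinned cells and 0.14 (-0.36 to 0.65) in the control library with the CD3 gate at 1 UMI.

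Il2rb (ENSMUSG00000068227, chromosome 15, 78479256 to 78495271, minus strand) was highest in NK cells, where its product also serves as receptor chain for interleukin-15. NK cells had 526 CPM (487 to 568) in the Nrp1L/L and 398 CPM (360.3 to 439) in the control library. CD8 cells had 321 and 226 CPM, CD3 cells without Cd8 UMIs 292 and 251 CPM, and myeloid cells 9.83 and 6.94 CPM. The 2 T cell groups did not differ beyond 1.5-fold from each other in either library (log2 ratio -0.14 and 0.15). Between genotypes the Nrp1L/L level was higher in each of the 3 lymphocyte gates, by a log2 ratio of 0.51 (0.37 to 0.65) in CD8 cells, 0.40 (0.22 to 0.58) in NK cells and 0.22 (0.02 to 0.42) in CD3 cells without Cd8 UMIs. None reached 1.5-fold. In CD8 cells the 5 T cell markers counted, among them the gate's own Cd3 genes, summed to 6176 and 4198 CPM, and their part in the ratio was not tested. With the CD3 gate at 1 UMI the ratio in CD3 cells without Cd8 UMIs was 0.66.

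Il2 (ENSMUSG00000027720, chromosome 3, 37120523 to 37125959, minus strand) is made mainly by activated conventional T cells. It was found in every gate and outside the gates at 23.7 to 50.3 CPM, mostly as a single UMI a cell: 198 of 254 positive Nrp1L/L cells and 236 of 294 positive control cells had just 1. Myeloid cells, which are not known for making IL-2, had 24.8 CPM in the Nrp1L/L and 24.3 CPM in the control library and a UMI in 19.6% and 19.8% of cells, at median depths of 8343.5 and 8676 UMIs. That level is read as background here. CD3 cells without Cd8 UMIs (35.9 and 28.8 CPM) and NK cells (39.6 and 27.5 CPM) had intervals that overlapped those of myeloid cells. CD8 cells stood at 46.6 CPM (39.6 to 54.4) and 35.8 CPM (29.5 to 43.1), with intervals above those of myeloid cells (18.3 to 32.9 and 20.4 to 28.7). After thinning, 12.4% (9.34 to 16.1) of CD8 cells and 2.80% (1.04 to 6.00) of myeloid cells of the Nrp1L/L library had a UMI. In the control library these shares were 8.30% (5.14 to 12.5) and 6.24% (4.41 to 8.53), whose intervals overlapped. No cell had more than 5 Il2 UMIs in either library.

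**Figure D1:**
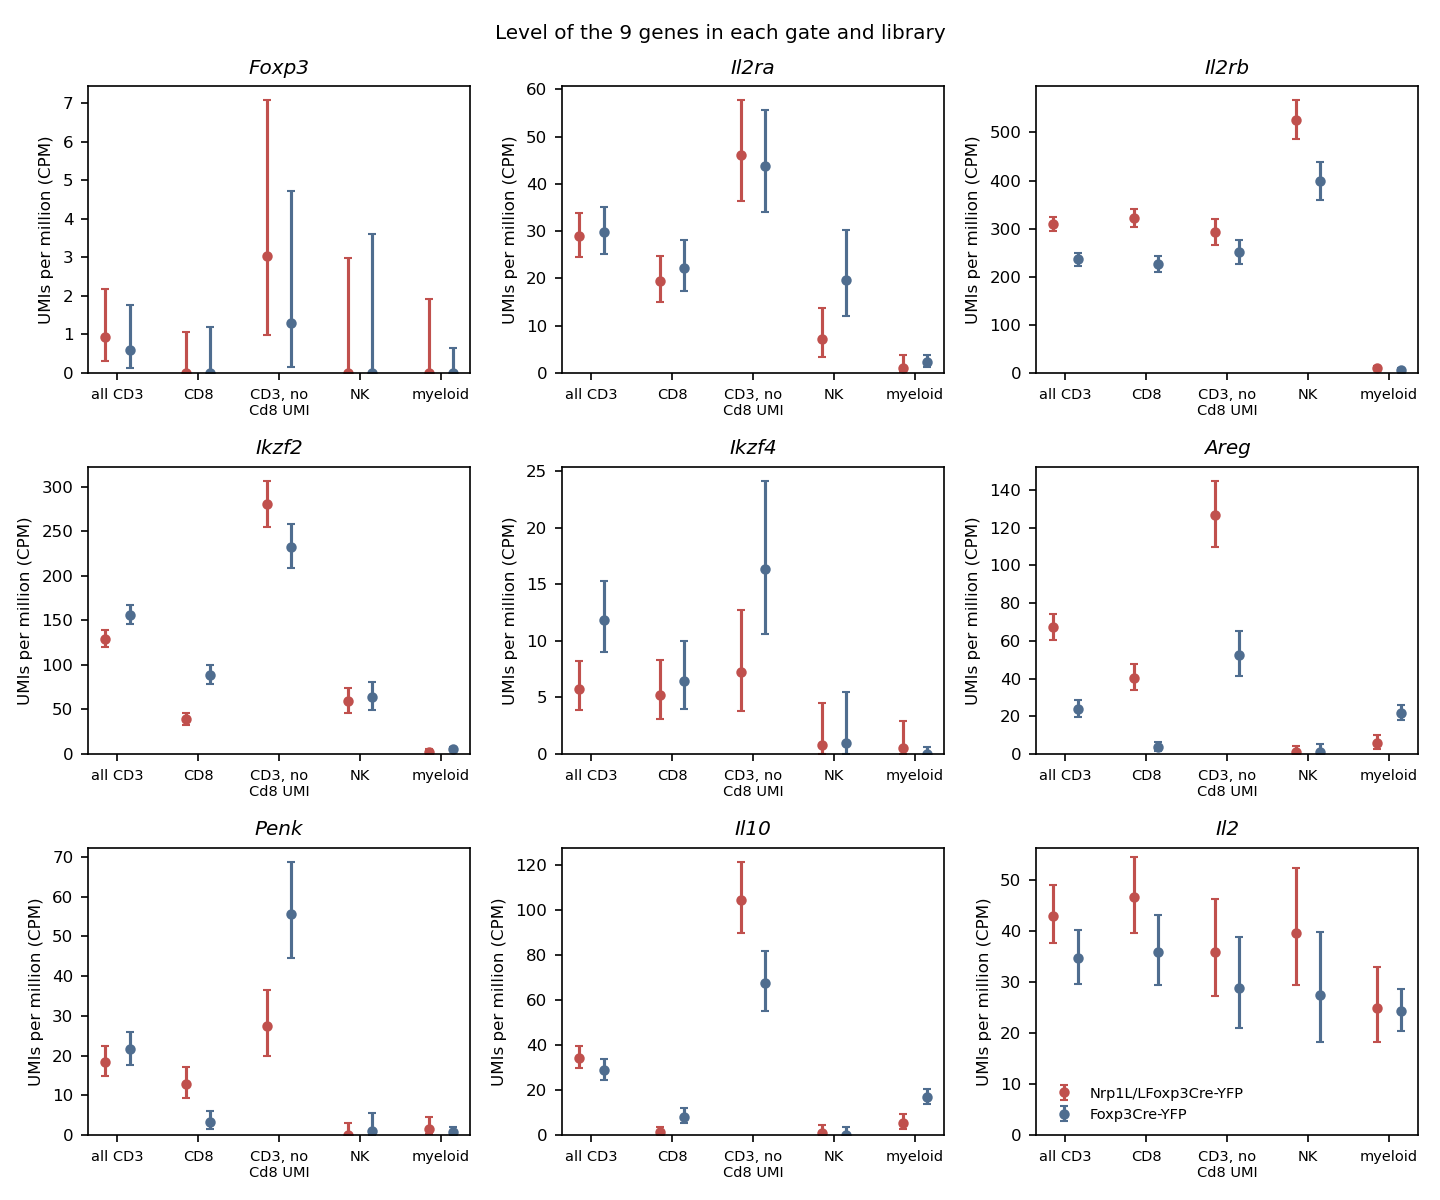
Level of each of the 9 genes (CPM, linear axis from 0, a scale of its own for each gene) in 5 gates, with the Nrp1L/LFoxp3Cre-YFP library left of the Foxp3Cre-YFP library; bars are 95% Poisson intervals of 1 library each. Ikzf2, Il2ra, Areg and Il10 peak in CD3 cells without a Cd8 UMI, Il2rb in NK cells (526 and 398 CPM), and Il2 lies between 24.3 and 46.6 CPM in these gates.

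Areg (ENSMUSG00000029378, chromosome 5, 91139599 to 91148432, plus strand) was higher in T cells of the Nrp1L/L library and lower in its myeloid cells. CD3 cells without Cd8 UMIs had 208 UMIs in 19 Nrp1L/L cells and 80 UMIs in 15 control cells, or 126 and 52.4 CPM (log2 ratio 1.27, 0.89 to 1.66). CD8 cells had 138 UMIs in 14 Nrp1L/L cells and 11 UMIs in 3 control cells, or 40.2 and 3.55 CPM (log2 ratio 3.50, 2.62 to 4.54). Myeloid cells had 11 UMIs in 7 Nrp1L/L cells and 126 UMIs in 20 control cells, or 5.69 and 21.9 CPM (log2 ratio -1.94, -2.98 to -1.05). With thinned cells the myeloid ratio was -0.89 (-2.45 to 0.40), whose interval includes 0, and with equal weight for each cell it was -0.87. The share of myeloid cells with a UMI was 3.27% (1.33 to 6.62) in the Nrp1L/L and 3.47% (2.13 to 5.30) in the control library. Of the 126 control UMIs 3 cells held 96. NK cells had 1 UMI in each library.

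The share of cells with an Areg UMI differed less than the level and depended on depth. In CD3 cells without Cd8 UMIs it was 5.88% (3.58 to 9.03) in the Nrp1L/L and 8.20% (4.66 to 13.2) in the control library, opposite in order to the level. After thinning it was 4.95% (2.86 to 7.92) and 3.83% (1.55 to 7.72), with overlapping intervals. In all CD3 cells it was 4.70% and 4.20% before thinning. A positive CD3 cell without Cd8 UMIs held a mean of 10.9 Areg UMIs in the Nrp1L/L and 5.33 in the control library. In CD8 cells the shares were 3.55% (1.96 to 5.89) and 1.24% (0.257 to 3.59), whose intervals overlapped. Among CD3 cells without Cd8 UMIs the 3 highest cells held 121 of the 208 Nrp1L/L and 52 of the 80 control Areg UMIs. The highest cell alone held 25.5% and 35.0%, and without that cell in each library the log2 ratio was 1.47. Without cycling cells it was 2.34, and with gates and levels from thinned cells 0.67. The CD8 ratio was 1.76 (0.67 to 3.04) without cycling cells and 4.59 with cells of more than 1 gate left out.

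Cells with at least 5 Areg UMIs numbered 23 in the Nrp1L/L and 11 in the control library. Of these, 22 and 6 were CD3 cells, 9 and 1 CD8 cells, and 1 and 4 myeloid cells. Ctla4 was found in 17 of 23 and 7 of 11, Tnfrsf4 in 18 and 7, Ikzf2 in 10 and 6, Il2ra in 8 and 2, and Foxp3 in 2 and 0. Lyz2, the myeloid gating gene, had at least 1 UMI in 11 and 8 of these cells. Basophils and type 2 innate lymphoid cells can also make Areg. The basophil marker Mcpt8 was found in 2 of the 23 and 0 of the 11 cells, and Fcer1a in none. Of the innate lymphoid markers, Il1rl1 was found in 1 of the 23 and 0 of the 11, and Gata3 in 6 and 5. In CD3 cells without Cd8 UMIs the 6 type 2 innate lymphoid markers summed to 227 CPM in the Nrp1L/L and 136 CPM in the control library. The 6 basophil and mast cell markers together stood at 86.9 CPM in the Nrp1L/L and 2.62 CPM in the control CD3 cells without Cd8 UMIs, with Fcer1a and Ms4a2 at 0 in both and Cd200r3, Gata2 and Cpa3 at 0 in the control library. In cells outside all gates these 6 markers summed to 2044 CPM in the Nrp1L/L and 22.6 CPM in the control library. Areg had 0 UMIs in the 121 Nrp1L/L and 23 UMIs in the 207 control cells there. The part of basophil or innate lymphoid cells in the Areg ratio was not tested.

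Penk (ENSMUSG00000045573, chromosome 4, 4133531 to 4138819, minus strand) encodes proenkephalin, the precursor of the enkephalin opioid peptides. Its UMIs were concentrated in single cells: 100 UMIs in 7 Nrp1L/L cells, of which 1 cell held 43, and 112 UMIs in 21 control cells, of which 1 held 62. CD8 cells had 44 and 10 UMIs (log2 ratio 1.99) and CD3 cells without Cd8 UMIs 45 and 85 UMIs (log2 ratio -1.02). With the highest cell of each library left out the CD8 cells had 1 UMI in the Nrp1L/L and 2 UMIs in the control library (log2 ratio -1.14, -7.02 to 3.13), so the direction of the CD8 ratio rested on 1 cell. The ratio in CD3 cells without Cd8 UMIs was -2.32 without the highest cells and -0.40 with gates and levels from thinned cells. The share of CD3 cells without Cd8 UMIs that held a Penk UMI was 0.929% (0.192 to 2.69) in the Nrp1L/L and 6.01% (3.04 to 10.5) in the control library, and 0.929% and 4.92% after thinning.

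Il10 (ENSMUSG00000016529, chromosome 1, 131019845 to 131024974, plus strand) encodes a cytokine that restrains macrophages and dendritic cells. CD3 cells without Cd8 UMIs had 172 UMIs in 22 Nrp1L/L cells and 103 UMIs in 7 control cells, or 104.6 and 67.5 CPM (log2 ratio 0.63, 0.27 to 1.00). The 3 highest cells held 86 of the 172 and 72 of the 103 UMIs. Il10 was lower in the Nrp1L/L library in CD8 cells (5 and 25 UMIs, log2 ratio -2.47, -4.21 to -1.06) and in myeloid cells (10 and 97 UMIs, 5.17 and 16.8 CPM, log2 ratio -1.70, -2.81 to -0.76). Of the 25 UMIs of control CD8 cells 3 cells held 20. The share of myeloid cells with a UMI was 2.34% (0.763 to 5.37) in the Nrp1L/L and 6.07% (4.26 to 8.34) in the control library. Without cycling cells the ratio was 0.23 (-0.20 to 0.66) in CD3 cells without Cd8 UMIs, and CD8 cells had 4 UMIs in the Nrp1L/L and 0 UMIs in the control library, so that the lower level in CD8 cells was not seen among them. Thinned myeloid cells had 1 Nrp1L/L and 24 control UMIs, a log2 ratio of -3.15 (-8.52 to -0.54).

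Most Areg and Il10 UMIs of the Nrp1L/L library lay in CD3 cells, which was not so in the control library. CD3 cells held 96.8% of the Areg UMIs of the Nrp1L/L library and 45.04% of those of the control library, while myeloid cells held 2.95% and 48.1%. For Il10, CD3 cells held 93.4% and 48.6%, and myeloid cells 5.05% and 33.0%. The libraries also differed in makeup, with myeloid cells at 16.8% of Nrp1L/L and 44.3% of control cells, which enters these shares.

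**Figure D2:**
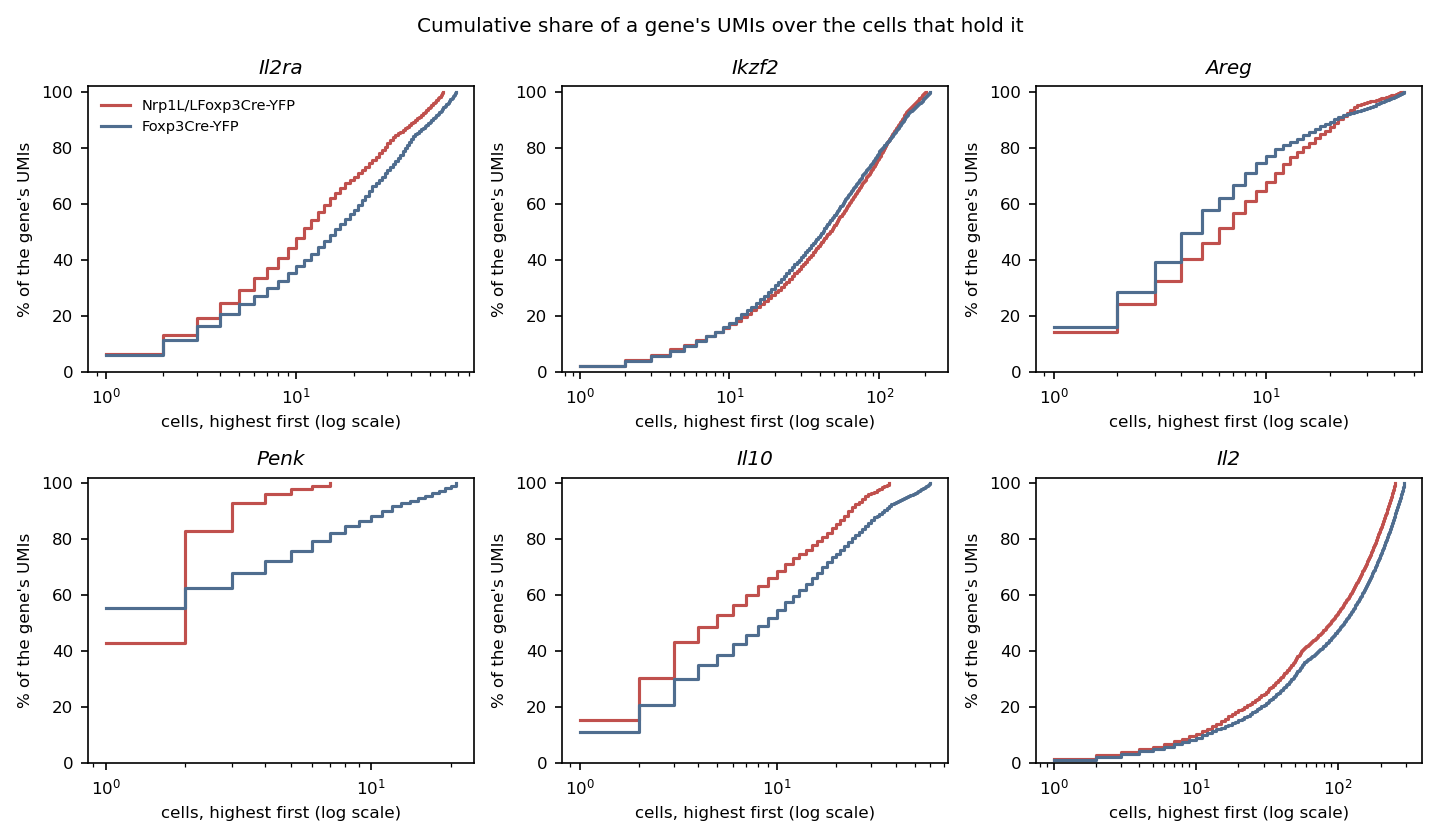
Cumulative percentage of a gene's UMIs (vertical axis) over the cells that hold it, ranked from the highest (horizontal log axis), for 6 of the genes in the Nrp1L/LFoxp3Cre-YFP and Foxp3Cre-YFP libraries. Penk reaches 43.0% and 55.4% with its highest cell alone, while Il2 and Ikzf2 are spread over 203 to 294 cells a library.

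Counts over the members were set against all genes with at least 20 UMIs over the 2 libraries in the same gate. In CD8 cells 2 of 8 measured members were at least 1.5-fold higher in the Nrp1L/L library (Areg and Penk) and 2 lower (Ikzf2 and Il10), beside 15.9% and 14.2% of all genes (30.2% in either direction). In CD3 cells without Cd8 UMIs 2 of 8 were higher (Areg and Il10) and 2 lower (Ikzf4 and Penk), beside 17.8% and 15.6% (33.4% in either direction). In NK cells 0 of 4 were higher and 1 lower (Il2ra), beside 21.8% and 13.8% (35.6% in either direction). In myeloid cells 0 of 5 were higher and 3 lower (Ikzf2, Areg and Il10), beside 12.6% and 20.6% (33.2% in either direction), and the Ikzf2 interval there included 0. The median log2 ratio of the measured members was 0.25 in CD3 cells without Cd8 UMIs and 0.09 in CD8 cells, against 0.00 and -0.01 over all genes.

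Most measured members stood higher in CD3 cells without Cd8 UMIs than in CD8 cells. CD3 cells without Cd8 UMIs exceeded CD8 cells at least 1.5-fold in 5 of 8 measured members in the Nrp1L/L library (Il2ra, Ikzf2, Areg, Penk and Il10; 19.7% of all genes) and in 6 of 8 in the control library (Ikzf4 as well; 20.1% of all genes). The gap of Il10 was a log2 ratio of 6.17 in the Nrp1L/L and 3.06 in the control library, and that of Penk 1.09 and 4.11. The Penk gap in the control library was 2.62 (0.78 to 5.06) with thinned cells and 0.96 (-0.28 to 2.31) without cycling cells. Ikzf2 exceeded its CD8 level by a log2 ratio of 2.83 (2.55 to 3.12) in the Nrp1L/L and 1.40 (1.16 to 1.63) in the control library. Il2rb was the only measured member at least 1.5-fold lower in these cells than in NK cells (log2 ratio -0.85 and -0.67), where 13.3% and 9.67% of all genes were lower and 19.6% and 21.2% higher. Over myeloid cells 6 of 7 measured members were at least 1.5-fold higher in the Nrp1L/L and 7 of 8 in the control library, where 40.3% and 34.6% of all genes were and the median of all genes stood at 0.32 and 0.23. The Areg excess over myeloid cells in the control library (log2 ratio 1.26) was -0.029 without cycling cells.

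**Figure D3:**
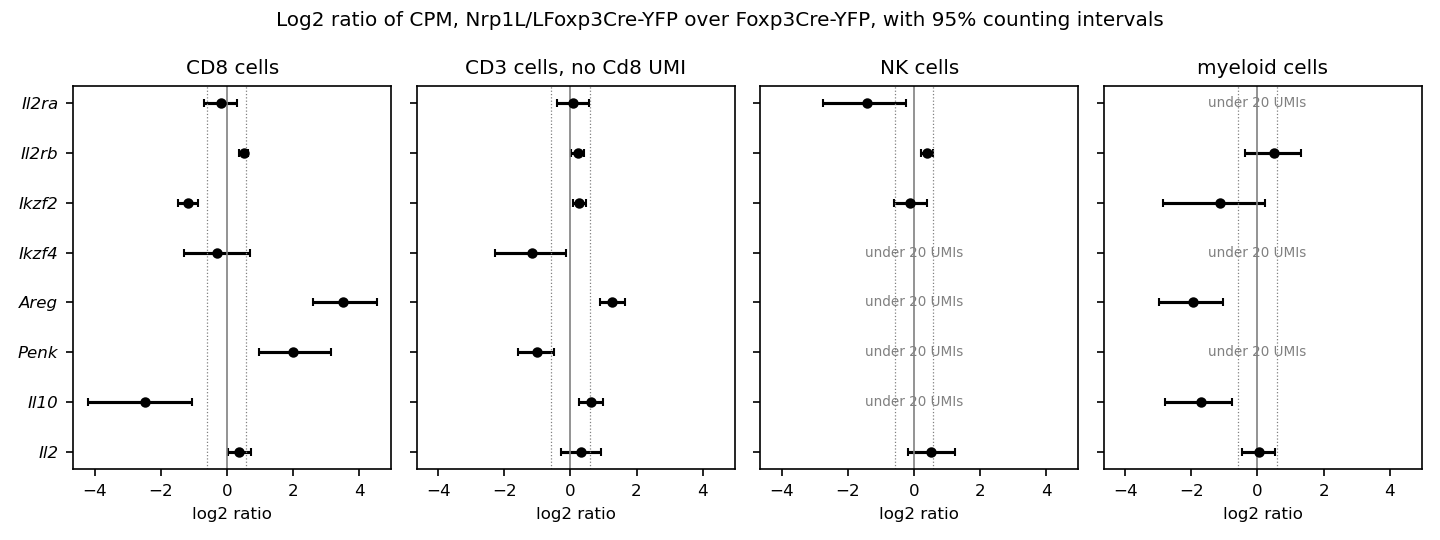
Log2 ratio of CPM, Nrp1L/LFoxp3Cre-YFP over Foxp3Cre-YFP (horizontal axis), of 8 genes in 4 gates; bars are exact 95% counting intervals and dotted lines mark 1.5-fold. Ikzf2, Penk and Il10 lie on opposite sides of 0 in CD8 cells and in CD3 cells without a Cd8 UMI, and Areg reaches 3.50 in CD8 cells.

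Co-detection was asked of the CD3 cells without Cd8 UMIs, for Il2ra with Ikzf2, since Foxp3 had too few UMIs to be paired. Both were found in 9 of 323 Nrp1L/L cells (2.79%, 1.28 to 5.22) and 16 of 183 control cells (8.74%, 5.08 to 13.8). After thinning the shares were 1.86% and 3.28%, with overlapping intervals, so a genotype difference in the share of such cells was not detectable at equal depth. Ikzf2 was found in 9 of the 20 Nrp1L/L cells with an Il2ra UMI and in 35.6% of those without, and in 16 of the 22 control cells with one (72.7%) and 42.9% of those without.

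The shares of cells with Areg and with Il10 were higher beside Il2ra in both libraries, which was not tested. That of Penk was 5.0% against 0.660% in the Nrp1L/L library and 4.55% against 6.21% in the control library. Beside Il2ra the Penk share rested on 1 positive cell in each library, and its intervals with and without Il2ra overlapped, so no direction is read. Areg was found in 35.0% (15.4 to 59.2) of Nrp1L/L cells with Il2ra and 3.96% (2.06 to 6.82) of those without, and in 18.2% (5.19 to 40.3) and 6.83% (3.46 to 11.9) of control cells. Il10 was found in 4 of 20 Nrp1L/L cells with Il2ra and 5.94% of those without, and in 18.2% and 1.86% of control cells. The Areg and Il10 intervals with and without Il2ra were apart for Areg in the Nrp1L/L library only. After thinning, Areg was found in 35.0% and 2.97% of Nrp1L/L and in 13.6% and 2.48% of control cells.

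Cells with both Il2ra and Ikzf2 were deeper, with medians of 5870.0 and 7349 UMIs, than cells with neither (3786 and 5523), so detection was compared after thinning. By thinned detection, the 10 genes that most separated them from cells with neither, averaged over the libraries, were Tnfrsf9, Tnfrsf4, Ctla4, Prdx1, Tnfrsf18, Traf1, Lag3, Capg, Gzmb and Tpi1. Tnfrsf9 (4-1BB) was found in 88.9% of the Nrp1L/L cells with both and 16.4% of those with neither, and in 93.8% and 26.1% of control cells. Ctla4, a checkpoint receptor of Treg cells, was found in 77.8% and 31.3% of Nrp1L/L and in 87.5% and 23.9% of control cells. Foxp3 UMIs were present in 1 of the 9 and 2 of the 16 cells. The NK genes Ncr1 and Klrb1c were at 0 in these cells of both libraries, and Lyz2 was found in 4 and 10 of them. Areg reached 1086 CPM in the 9 Nrp1L/L cells, 4 of them positive, and 65.0 CPM in the 16 control cells, 3 of them positive.

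**Figure D4:**
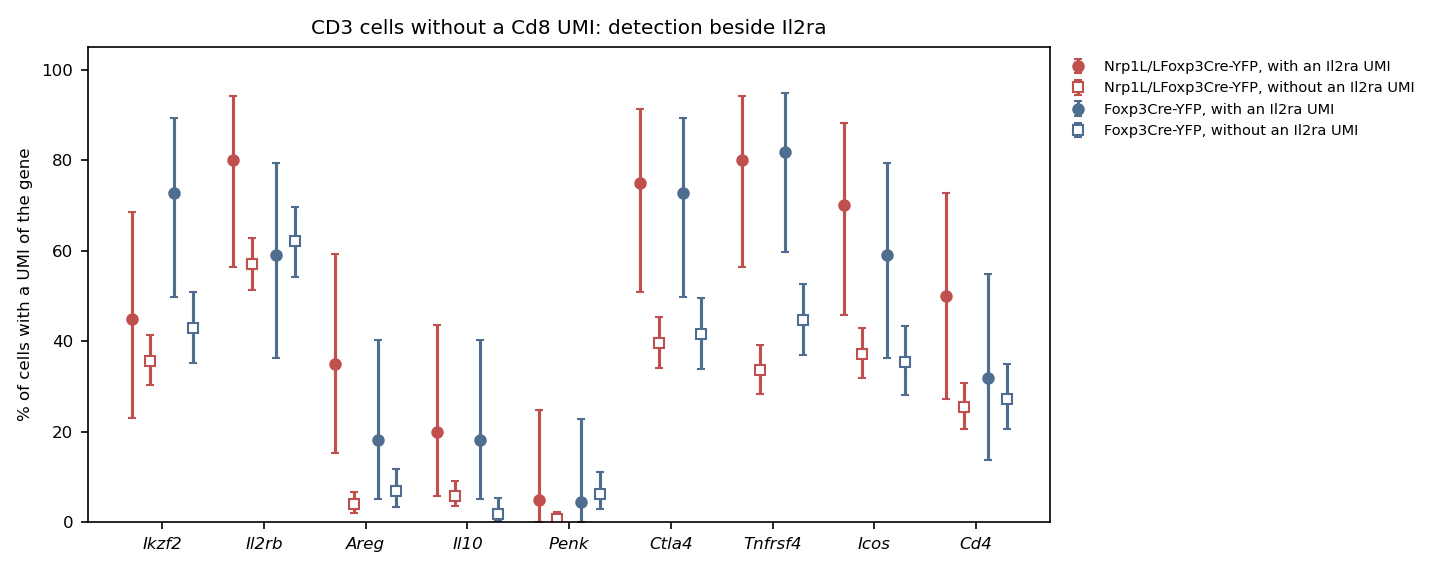
Percentage of CD3 cells without a Cd8 UMI in which a gene was found (vertical axis), for cells with (filled) and without (open) an Il2ra UMI, in the Nrp1L/LFoxp3Cre-YFP library (left pair) and the Foxp3Cre-YFP library (right pair); bars are exact 95% binomial intervals. Areg was found in 35.0% against 3.96% of Nrp1L/L cells, while the Il2rb and Penk intervals overlap.

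Among CD8 cells with an Il2ra UMI, Ikzf2 was found less often in the Nrp1L/L library before thinning, as it was among those without. Ikzf2 was found in 5 of 28 Nrp1L/L CD8 cells with an Il2ra UMI (17.9%, 6.06 to 36.9) and in 17 of 27 control ones (63.0%, 42.4 to 80.6). In cells without Il2ra it was found in 9.84% and 31.3%. The median depths of the cells with Il2ra were 7831.5 and 19129 UMIs, and after thinning 10.7% and 29.6% of them held Ikzf2. With 28 and 27 cells the intervals of these thinned shares overlap, so no difference is read among them at equal depth. Tnfrsf4 (OX40) was found in 60.7% and 85.2% of the CD8 cells with Il2ra and in 28.7% and 47.7% of those without.

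Of 8 common gamma chain family receptors 7 were measured in CD3 cells without Cd8 UMIs, 3 at least 1.5-fold higher in the Nrp1L/L library (Il4ra, Il7r and Il21r) and 0 lower, beside 17.8% and 15.6% of all genes, with a median log2 ratio of 0.43 against 0.00 over all genes. Il7r, the interleukin-7 receptor of naive and memory T cells, stood at 78.4 CPM in the Nrp1L/L and 41.9 CPM in the control library. Il2rg, the shared gamma chain, stood at 368 and 273 CPM (log2 ratio 0.43, 0.25 to 0.61). In CD8 cells Il7r was the only one past 1.5-fold (29.1 and 14.2 CPM), where 30.2% of all genes were.

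Of 22 genes of IL-2 and STAT5 signalling, all measured in CD3 cells without Cd8 UMIs, 6 were higher and 2 lower, again beside 17.8% and 15.6% of all genes, with a median log2 ratio of 0.29. The survival kinase gene Pim2 stood at 89.4 CPM in the Nrp1L/L and 25.5 CPM in the control library, and the related Pim1 at 487 and 377 CPM. Osm, a cytokine gene induced by STAT5, stood at 130.1 and 60.2 CPM, and Ccnd2, a cyclin of the G1 phase, at 426 and 341 CPM. Of the same 22 genes 4 were higher and 3 lower in CD8 cells (15.9% and 14.2% of all genes; median 0.24). There Tfrc, the transferrin receptor, was lower (7.86 and 25.5 CPM) and Osm higher (39.9 and 10.6 CPM).

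Of 24 surface and effector genes associated with Treg cells, 20 were measured in CD3 cells without Cd8 UMIs, 5 higher and 4 lower (beside 17.8% and 15.6% of all genes), with a median of 0.03. Lag3, an inhibitory receptor, stood at 315 CPM in the Nrp1L/L and 119 CPM in the control library, and Cd83 at 35.3 and 98.9 CPM. Tnfrsf4 and Tnfrsf18 (GITR), with the most UMIs of the list, stood at 783 and 792 CPM and at 873 and 827 CPM. Of 19 associated transcription factors 18 were measured, 7 higher and 1 lower (beside 17.8% and 15.6% of all genes), with a median of 0.45. Satb1, a chromatin organiser, stood at 139.8 and 50.4 CPM and Foxo1 at 49.2 and 19.6 CPM. In CD8 cells 17 surface genes were measured, 8 higher and 4 lower (median 0.06), and 19 transcription factors, 7 higher and 2 lower (median 0.19), beside 15.9% and 14.2% of all genes.

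Of the 5 Ikaros family genes 0 were higher and 2 lower (Ikzf4 and Ikzf5) in CD3 cells without Cd8 UMIs, beside 17.8% and 15.6% of all genes. Ikzf5 had 8 and 12 UMIs there, with an interval that included 0 (-2.19 to 0.72). In CD8 cells Ikzf3 was higher (92.0 and 43.2 CPM) and Ikzf2 lower. Of 12 epidermal growth factor receptor ligands and receptors, besides Areg only Adam17, which sheds such ligands, was measured in CD3 cells without Cd8 UMIs (20.1 and 17.7 CPM). Of the 9 opioid genes only Penk was measured there. Of 7 IL-10 family genes, Il10ra and Il10rb were measured and stood at 38.9 and 26.8 CPM and at 120.4 and 89.1 CPM. Of 6 common gamma chain cytokines, Il4 differed most, with 247 UMIs in the Nrp1L/L and 4 UMIs in the control library. Of 9 genes of innate lymphoid and tissue-repair cells 6 were measured, 4 higher and 1 lower (Klrg1, 39.5 and 102 CPM), beside 17.8% and 15.6% of all genes, and Il13 stood at 62.0 and 2.62 CPM. The basophil markers given above moved with Il4 and Il13, and their part was not tested.

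Across the 8 points given by CD8 cells, CD3 cells without Cd8 UMIs, NK cells and myeloid cells in each library, the genes whose log2 level most resembled a member's were listed by Pearson's r among 9696 genes with at least 50 UMIs. With so few points that share libraries and depth, the r values are a description. Stat5a, a transducer of the IL-2 receptor, was nearest to Il2ra (r = 0.98) but not among its 5 nearest with a pseudocount of 1 in place of 10 CPM. Ctsw, Acap1 and Cd226 were nearest to Il2rb (1.00, 1.00 and 1.00), Eme1 to Ikzf4 (0.98), and Faah and Tst to Ikzf2 (0.99 and 0.98). Rest and Hif1a were nearest to Areg (0.97 and 0.96), Stx6 to Il10 (0.97), and Neb, Cish and Ccr8 to Penk (0.97, 0.96 and 0.96). A pseudocount of 1 also removed Stx6 from the 5 nearest to Il10, and Neb and Ccr8 from those to Penk.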

How the data were processed

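Per the submitters' processing notes the authors used Cell Ranger 1.3 and the mm10 genome. The deposited matrices hold whole UMI counts for each gene and barcode, and they list barcodes already called as cells. They share 3 barcodes. Doublet scores came from the Scrublet routine of scanpy 1.11.5, with 2% doublets assumed. Its threshold called 8 control barcodes (0.611%), which were left out. In the Nrp1L/L library it called 3 (0.231%), under the 0.5% set as a minimum, so the 26 highest scores (2%) were left out. Totals were 8978610 UMIs in 1301 Nrp1L/L barcodes and 13042802 UMIs in 1310 control barcodes.

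UMIs were summed over the cells of a gate and divided by the gate's total (CPM). CPM carry exact Poisson intervals, shares of cells Clopper-Pearson intervals and log2 ratios (Nrp1L/L over control) exact conditional binomial intervals, all at 95%. A count of 0 was given the limit that 3 counts allow. A gene was measured where it had at least 20 UMIs over the 2 sides compared, and 1.5-fold was the size rule, not a test. Thinning drew 2500 UMIs from each cell without replacement. The ratio step was run on simulated Poisson counts. These lack the concentration of UMIs in few cells seen for Penk and Areg, so the intervals were not checked for such genes. TMM factors came from edgeR 4.0.16 in R 4.3.3, and the rest used Python 3.11.15 with numpy 2.4.6, scipy 1.17.1 and pandas 2.3.3. Positions are from GENCODE on GRCm38. Named genes were the 9 members, up to 4 genes a list and gate with the most UMIs or the largest ratio whose interval excludes 0, the nearest 5 genes to each member of which the first are printed (those of Il2 are not reported here), and the 10 genes separating the double-positive cells. Other genes named with counts of 5 or fewer, or in cells with at least 5 Areg UMIs, were chosen after their values were seen. The members and lists were chosen with earlier results of these data known.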

Additional observations from a re-analysis of the deposited data

Results flagged for a closer look

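Several genes stood in opposite directions in 2 gates of the same genotype comparison, with intervals on either side of 0. These differences of log2 ratios (Nrp1L/L over control) were not tested, since each gate rests on 1 library a genotype. The ratio of Ikzf2 in CD8 cells less that in CD3 cells without Cd8 UMIs was -1.44. For Il10 the same difference was -3.10 and for Penk 3.01. Without the highest cell of each library the Penk ratios were -1.14 in CD8 cells (1 and 2 UMIs) and -2.32 in CD3 cells without Cd8 UMIs, and without cycling cells Il10 had 4 and 0 UMIs in CD8 cells. Against myeloid cells, the Areg ratio was higher by 5.44 in CD8 cells and by 3.21 in CD3 cells without Cd8 UMIs, and the Il10 ratio was higher by 2.33 in CD3 cells without Cd8 UMIs. The myeloid Areg ratio itself was -0.89 (-2.45 to 0.40) with thinned cells, and 3 control cells held 96 of its 126 control UMIs.

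Cells outside all gates, for which no ratio is given above, numbered 121 in the Nrp1L/L and 207 in the control library. Il2rb stood at 158 CPM in the Nrp1L/L and 20.4 CPM in the control cells (log2 ratio 2.95), and Ikzf2 at 24.9 and 6.46 CPM (log2 ratio 1.95). Areg and Il10 went the other way. Areg had 0 Nrp1L/L and 23 control UMIs (interval up to -1.08). Il10 had 5 and 54 UMIs (log2 ratio -1.99, -3.67 to -0.68), and 1 control cell held 27 of the 54. The 7 NK markers summed to 2610.2 CPM in the Nrp1L/L and 127 CPM in the control cells there, and the 6 basophil and mast cell markers to 2044 and 22.6 CPM; their part in these ratios was not tested.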

How the results depend on the processing

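No paired analysis was possible because each genotype has 1 library. Of 13 genotype ratios past 1.5-fold whose interval excluded 0, 11 kept their direction under every alternative, and of 37 such ratios between gates 35 did. The cause of each move below was not tested. The Penk ratio in CD8 cells reversed: it was -1.29 with thinned cells, at most -2.50 without cycling cells (0 and 9 UMIs), -0.059 with equal weight for each cell and -1.14 without the highest cell, an alternative chosen after seeing the data. The Il10 ratio in CD8 cells reversed without cycling cells, with 4 Nrp1L/L and 0 control UMIs, which gives only a lower bound of -0.50. In the control library, CD3 cells without Cd8 UMIs over NK cells gave -0.11 for Il2ra with gates from thinned cells, and over myeloid cells -0.029 for Areg without cycling cells.

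Ratios in CD8 cells were 4.59 for Areg with exclusive gates, 0.46 for Il2ra with thinned cells, 1.61 for Il2ra and -0.22 for Ikzf2 with gates from thinned cells, -0.86 for Il2ra and 1.76 for Areg without cycling cells, and -0.70 for Ikzf2 with equal weight. In CD3 cells without Cd8 UMIs they were 0.065 for Ikzf2 with exclusive gates, 0.59, 0.66 and 0.63 for Il2ra, Il2rb and Ikzf2 with the CD3 gate at 1 UMI, 0.67 for Areg with gates from thinned cells, 2.34 for Areg without cycling cells and -0.61 for Il2ra with equal weight. The control share of cells with both Il2ra and Ikzf2 was 3.28% with thinned cells and 3.12% with gates from thinned cells.

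Members past 1.5-fold numbered 2 in NK cells with exclusive gates and 0 there with at least 50 UMIs or without the highest cell. They numbered 7 in CD3 cells without Cd8 UMIs with the CD3 gate at 1 UMI and 1 with gates from thinned cells, and 2 in CD8 cells with gates from thinned cells or without the highest cell. With at least 50 UMIs, genes past 1.5-fold numbered 1727 in CD8 cells, 1458 in CD3 cells without Cd8 UMIs, 1284 in NK cells and 1936 in myeloid cells, against 2710, 2644, 2415 and 3008 with at least 20. Of 79 log2 ratios none was moved by TMM or median-of-ratios scaling or by a CD3 gate at 3 UMIs. Foxp3 and Ikzf4 are limited by depth.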

Other observations

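The CD3 cells with exactly 1 Cd8 UMI, 49 in the Nrp1L/L and 28 in the control library, fall in neither T cell group. Ikzf2 stood at 337 CPM in the Nrp1L/L and 435 CPM in the control library, Il2ra at 43.8 and 35.5 CPM, Areg at 50.5 and 79.9 CPM, and Il10 at 26.9 and 44.4 CPM. All 27 control Areg UMIs lay in 1 cell, as did all 15 control Il10 UMIs. Ikzf4 had 1 UMI in the Nrp1L/L and 14 UMIs in the control cells, of which 1 cell held 11. In both libraries the Ikzf2 level was above that of each of the other gates. Its Nrp1L/L interval (274 to 409) overlapped that of CD3 cells without Cd8 UMIs (255 to 307). The control intervals of these 2 groups were apart (367 to 511 and 209 to 258).

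Ifng, looked at after the values of Areg were seen, was found in 12 of the 23 Nrp1L/L cells with at least 5 Areg UMIs and in 0 of the 11 such control cells, of which 9 and 1 were CD8 cells. Among the cells with at least 5 Il10 UMIs, 11 in the Nrp1L/L and 19 in the control library, 0 and 6 were myeloid, and C1qa was found in 2 and 7.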
